A study of Mus musculus with 7 samples.

Results

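The genes described here carry a cell from the G1 commitment point into S phase and copy its DNA: cyclins D1 and E, E2F factors, origin licensing proteins, the MCM helicase, DNA polymerases, the sliding clamp and its loader, and the enzymes of Okazaki fragment maturation, nucleotide supply and replication-coupled chromatin assembly. The list named 43 genes by symbol, and all 43 were found among the 14851 genes of the table. Of these, 39 had a mean of at least 10 normalised counts over all livers and were tested, together with 12545 genes in all. Orc1, Cdc6, Uhrf1 and Dtl lay below that mean, so their values are given without a fitted test.

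RNA was sequenced from whole livers of 7 male C57BL/6J (N10) mice about 70 days old. All 7 carried Albumin-Cre, a Cre recombinase driven by the albumin promoter of hepatocytes. In the 4 Albumin-Cre; p53FL/FL (FL) livers this Cre deleted the floxed Trp53 alleles, and the 3 Albumin-Cre; p53 WT (WT) livers kept wild-type Trp53. Every mouse received a single intraperitoneal dose of the hepatotoxin carbon tetrachloride (CCl4) in the morning, dosed at 1 mL/kg and diluted to 20% in corn oil, and livers were taken 8 h later. No untreated liver was analysed here, so every level below is a level after injury and none is a response to CCl4. Some mice of the study, in either genotype, carried a Rosa26 LSL-tdRFP reporter, and the sources used here do not say which. The WT source names share 1 prefix and the FL names have others. What a prefix stands for is not stated, so whatever it marks cannot be told apart from genotype. The paper reports matching mice by age and litter where possible. Each liver came from a separate mouse.

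In a resting cell, Rb proteins hold E2F factors silent. Cyclin D and then cyclin E kinases release them, and E2F then drives the genes of licensing, DNA synthesis and nucleotide supply, while the atypical factors E2F7 and E2F8 shut the same genes down again. Adult hepatocytes are quiescent and re-enter this cycle after toxic injury, p53 can hold cells in G1 by inducing the kinase inhibitor p21, and the livers here were taken before the time at which replicating hepatocytes are usually seen.

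E2F sites in promoters are a well known sequence feature of such genes, and short stretches are shown here so that the shared letters can be seen beside the levels that follow. Windows of 300 bases, from 250 before to 50 after the start of each gene, came from RefSeq (GRCm38.p6). They matched 37 of the 43 genes. Ccnd1, Ccne2, Mcm4, Gins1, Gins2 and Pole were not matched. The E2F motif was searched on both strands as TTTCCCGC, TTTCGCGC, TTTGCCGC or TTTGGCGC. It was present in 16 of the 37 genes (43.2%, 95% Wilson interval 28.7 to 59.1), in 4.52% of the 9917 tested genes with a window and in 2.26% of all 32851 windows. With the first T dropped from each, which also counts every match of the full letters, the shares were 64.9%, 18.8% and 9.57%. The CCAAT box was found in 62.2% of the 37 genes and 42.7% of tested genes. The letters TTTGAA, the core of the cell cycle homology region of late cell cycle promoters, were found in 16.2% of the 37 genes and 14.3% of tested genes. A match is a description of these letters and shows neither binding nor activity.

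The following stretches of 30 bases run 5′ to 3′ on the strand of the gene, with the E2F motif in capitals. They were chosen after the values were seen, 5 from genes that were highest in WT replicate 2 among the WT livers (Mcm5, Mcm6, E2f2, Rfc3 and Uhrf1) and 2 from genes that were lowest there (Cdt1 and Mcm7).
Mcm5: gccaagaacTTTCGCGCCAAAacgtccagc
Mcm6: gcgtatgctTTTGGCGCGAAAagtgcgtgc
E2f2: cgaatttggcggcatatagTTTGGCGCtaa
Rfc3: gcacgcTTTCGCGCtcGCGGGAAAactcta
Uhrf1: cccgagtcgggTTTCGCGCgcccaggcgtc
Cdt1: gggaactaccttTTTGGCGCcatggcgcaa
Mcm7: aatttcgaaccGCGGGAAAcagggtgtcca
They lie at chr8:75109347-75109376 on the plus strand (Mcm5), chr1:128359795-128359824 on the minus strand (Mcm6), chr4:136172294-136172323 on the plus strand (E2f2), chr5:151651195-151651224 on the minus strand (Rfc3), chr17:56304117-56304146 on the plus strand (Uhrf1), chr8:122568035-122568064 on the plus strand (Cdt1) and chr5:138172030-138172059 on the minus strand (Mcm7). In Mcm5 and Mcm6 motifs on opposite strands overlap in 1 run of capitals, and in Rfc3 a pair of motifs is divided by 2 bases. In these stretches the E2f2 and Cdt1 motifs lie after the start site. Of the Rfc3 pair, the motif nearer the gene begins at the start site. The others begin before it.

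The 250 bases before the start of Mcm5, the helicase subunit whose level differed most between livers, are shown whole (chr8:75109259-75109508 on the plus strand), with the same motifs in capitals.
Mcm5 upstream: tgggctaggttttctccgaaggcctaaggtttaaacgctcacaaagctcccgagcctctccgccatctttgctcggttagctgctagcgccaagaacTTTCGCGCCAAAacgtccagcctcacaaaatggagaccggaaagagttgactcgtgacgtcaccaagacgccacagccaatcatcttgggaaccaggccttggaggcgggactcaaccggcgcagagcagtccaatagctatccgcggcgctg
Of the 16 genes with the motif, 12 were highest and 2 lowest in WT replicate 2 among the WT livers, with a median log2 difference of 0.73 from the other 2 WT livers and a range from -1.06 to 2.59. The 21 genes whose window lacked it were highest there in 10 and lowest in 7, with a median of 0.07. Genes with the same motif letters thus stood on both sides, and the difference between the sets was not tested.

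The values below are normalised counts: reads per gene divided by a size factor for each library and rounded to whole numbers. Estimated depth was 11880000 to 19530000 reads per library. Trp53 checked the labels, with 110 to 217 normalised counts in FL and 688 to 876 in WT, so that FL livers held on average 18.4% of the WT level (limma adjusted p = 0.0447, ranging from 2.58e-05 to 1 over the alternatives, with log2 differences from -2.781 to -2.353). It was highest among FL livers in FL replicate 3. Hepatocyte markers were abundant in all 7 livers, with Alb alone between 956556 and 1511638. One liver of each genotype stood apart. Against its genotype mates, WT replicate 2 gave chi-square values per degree of freedom of 123.2 and 126.2, where the other WT pair gave 9.425, and FL replicate 3 gave 56.1 to 72.31, where other FL pairs gave 9.921 to 21.37. In these same livers the summed markers of stellate cells, Kupffer cells and macrophages, lymphocytes, and neutrophils and monocytes were also high. Of the 9 neutrophil and monocyte markers, 7 were highest in WT replicate 2 among WT livers, all but S100a8 and Cxcr2. In FL replicate 3, 7 were highest among FL livers, all but Retnlg and Cxcr2. Summed over the list, stellate markers were 12307 in WT replicate 2 against 3137 to 3445 in the other WT livers, and 4561 in FL replicate 3 against 3234 to 3391 in the other FL livers. All 12 Kupffer cell and macrophage markers were highest in WT replicate 2 among the WT livers (sum 19112 against 7328 to 8182), and their sum in FL replicate 3 was 11667 against 7549 to 9036. The pericentral hepatocyte enzyme Cyp2e1, which activates CCl4, was at 8415 in WT replicate 2 and 17110 in FL replicate 3, and at 37306 to 56150 in the other 5 livers. The list of 8 hepatocyte markers to which it belongs had no common direction. In WT replicate 2, 4 were highest and 4 lowest among WT livers. In FL replicate 3, 4 were highest and 3 lowest among FL livers. The part of these differences in the results below was not tested. In bulk liver, fewer cells of a type and less RNA per cell cannot be told apart.

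Between genotypes, no G1/S or replication gene passed the test. The count was 0 of 39 at an adjusted p under 0.05 (limma on log2 of the normalised count + 1), beside 0.0159% of all tested genes, which is Trp53 and the p53 target Eda2r. With DESeq2, the paper reported more genes at that threshold in these livers, among them the p53 targets Ccng1, Zmat3 and Abcb1a. Here all FL livers were below all WT livers for each, with limma adjusted p of 0.254, 0.999 and 0.999. Genes that differ can thus fail the test used here. At an unadjusted p under 0.05, 1 of 39 passed (Ung), beside 3.2% of all genes. Ung was also the 1 gene whose FL and WT livers did not overlap with FL higher (2.77% of all genes), and none of the 39 was without overlap with FL lower (1.98% of all genes). The median log2 difference, FL minus WT, was -0.20, with 27 genes below 0 and 12 above, beside 0.01 over all genes tested. That median rested largely on WT replicate 2, since without this liver it was -0.045.

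**Figure D1:**
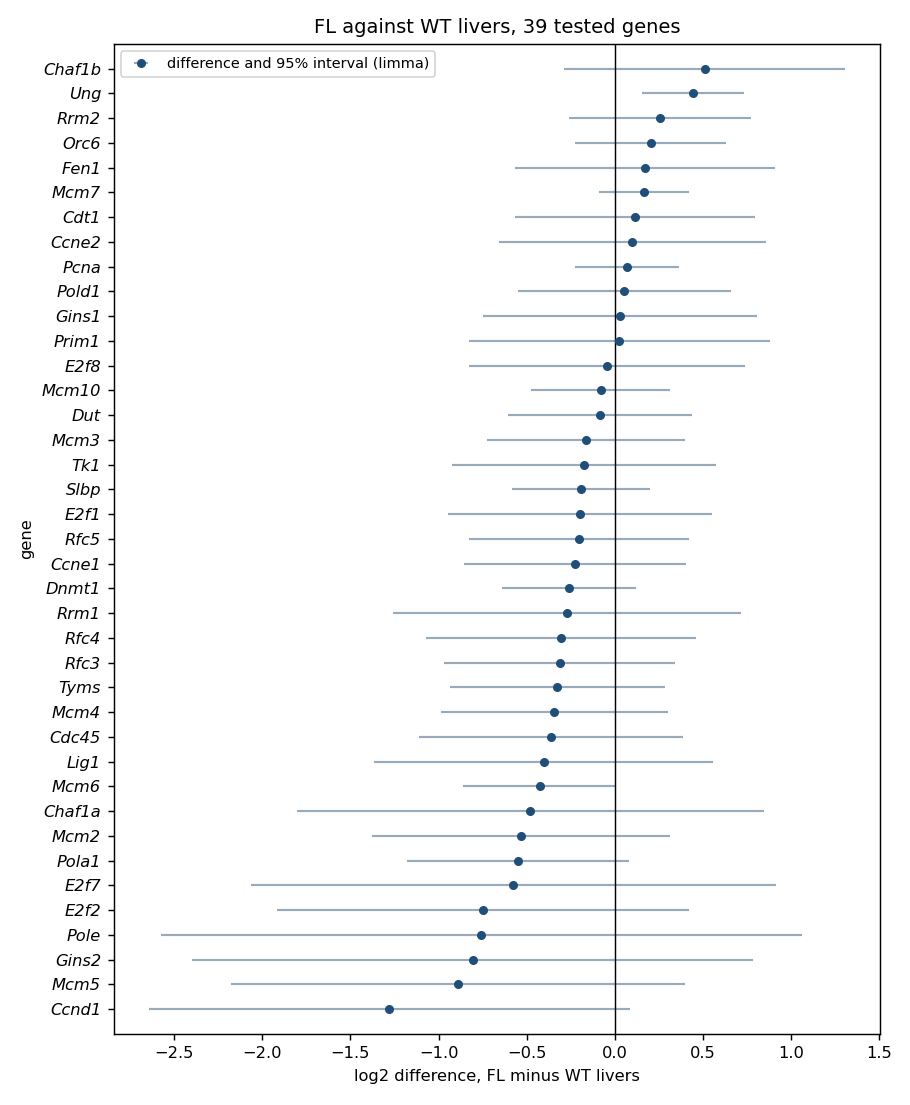
Difference between FL (n = 4) and WT (n = 3) livers for the 39 tested genes, in log2 units (x axis), with 95% intervals from limma, sorted by size (y axis, gene). The interval of Ung alone leaves out 0, from 0.16 to 0.73, and the intervals are wide for genes such as Ccnd1, Mcm5 and Pole whose WT livers differ among themselves.

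Ung, the uracil-DNA glycosylase that removes uracil from new DNA, is described first because it alone of the 39 was without overlap. That is 2.56% of the 39, near the share of 2.77% over all genes, so it does not set these genes apart. FL livers had 563, 607, 715 and 653 normalised counts, and WT livers 487, 414 and 497, in the order FL replicate 1 to FL replicate 4 and WT replicate 1 to WT replicate 3, which holds for all values below. Every FL liver was above every WT liver, by 66 normalised counts between the nearest pair. The means were 634.5 ± 65.04 (SD, n = 4) and 466 ± 45.31 (SD, n = 3), and the log2 difference was 0.44 (SE 0.12, 95% interval 0.16 to 0.73). Its unadjusted limma p was 0.00754, its adjusted p was 0.999, and its p ranked 60 among all genes tested. Without WT replicate 2 and FL replicate 3 the difference was 0.30 (limma unadjusted p = 0.0139, adjusted p = 0.373). Its partner in nucleotide hygiene, Dut, which breaks down dUTP so that uracil is not built into DNA, had a log2 difference of -0.09 (SE 0.23).

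The largest difference in size was that of Ccnd1, cyclin D1, which starts the passage through G1. It was at 443, 213, 527 and 331 in FL and 475, 2564 and 543 in WT. WT replicate 2 was 5.04 times the mean of its mates, and the other WT livers lay inside or just above the FL range. The log2 difference, FL minus WT, was -1.28 (SE 0.59, 95% interval -2.65 to 0.08, limma unadjusted p = 0.0624, adjusted p = 0.999). Without WT replicate 2 and FL replicate 3 its difference was -0.69 (limma unadjusted p = 0.0214, adjusted p = 0.424). On part of its length (23.4% of its exon bases) Ccnd1 overlaps an exon of LTO1 on the other strand, and the strand setting of the counting is not given in the sources used here.

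With WT replicate 2 and FL replicate 3 both left out, 38 of the 43 genes were tested and 0 passed at an adjusted p under 0.05, beside 0.0487% of all genes tested in those 5 livers. At an unadjusted p under 0.05, 4 passed, beside 9.74% of all genes: Ung and Chaf1b with FL higher, Ccnd1 and Mcm10 with FL lower. Their adjusted p ran from 0.373 to 0.456.

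Within each genotype, the liver that stood apart over all genes was compared with its mates. Over the 39 tested genes the median log2 difference of WT replicate 2 from its mates was 0.78, with a range from -1.06 to 2.5, beside 0.02 over all genes tested. For FL replicate 3 the median was 0.24, from -1.98 to 1.88, beside 0.01, and with quantile normalisation it was -0.026. WT replicate 2 was the highest WT liver for 25 of the 39 (45.5% of all genes) and the lowest for 10 (44.3%). It was over 2-fold above both mates for 9 (9.26% of all genes) and over 2-fold below both for 0 (6.31%). FL replicate 3 was the highest FL liver for 19 (35% of all genes) and the lowest for 8 (34.5%), and over 2-fold above every mate for Pole alone (1.94%) and over 2-fold below for E2f7 alone (1.24%). Both livers were highest in their genotype for 16 genes, beside 28.6% of all genes, and both lowest for 5, beside 28.8%. The 5 were E2f8, Cdt1, Mcm7, Pcna and Dut.

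**Figure D2:**
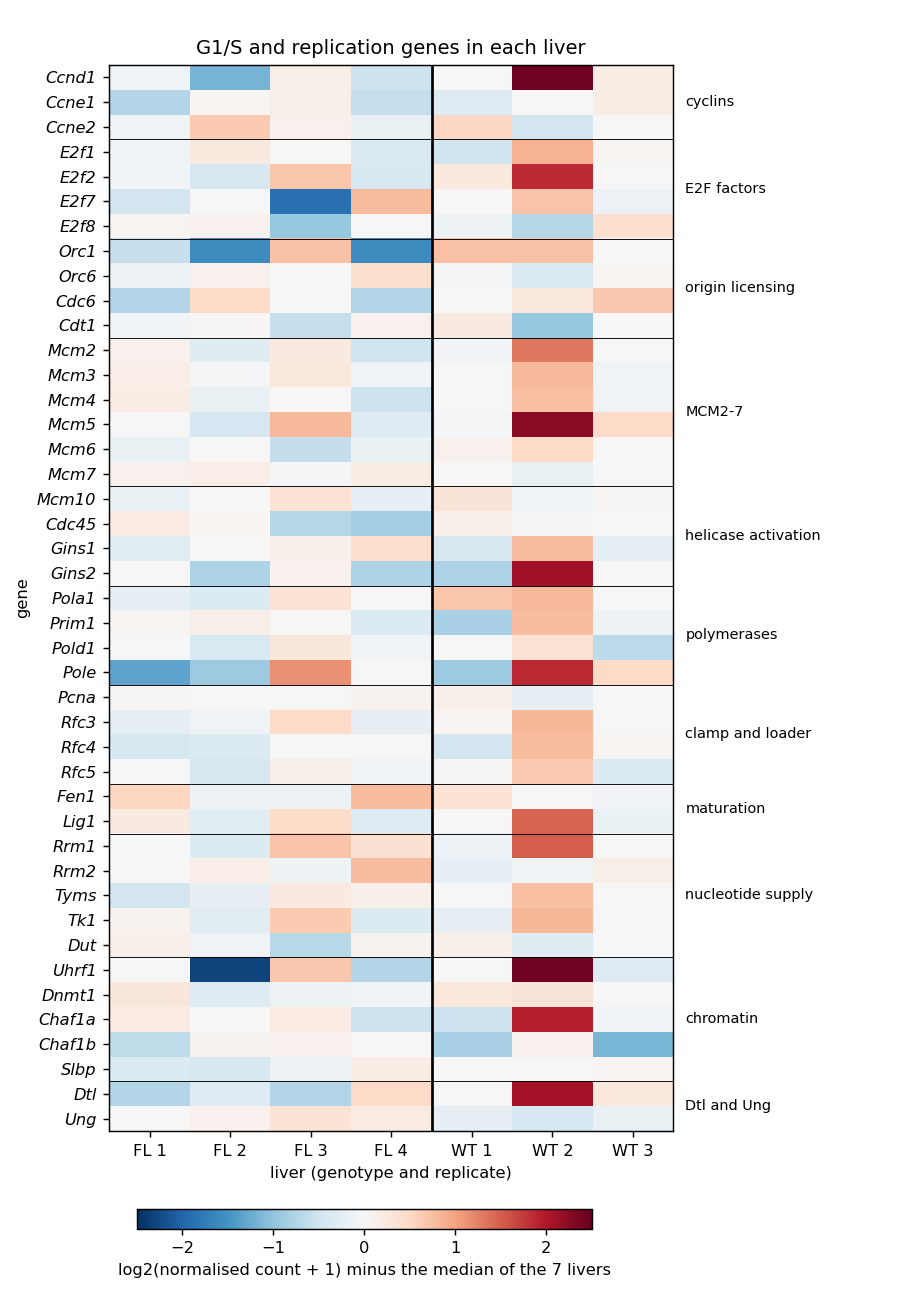
Level of each of the 43 genes (y axis, grouped by role) in each of the 7 livers (x axis), as log2(normalised count + 1) minus the median of the 7 livers, with the colour scale cut at 2.5 above and below 0. The WT 2 column is red for most of the MCM, polymerase, clamp loader, nucleotide and chromatin genes and blue for E2f8 and Cdt1, and Ung, in the last row, is the tested gene in which every FL liver is above every WT liver.

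**Figure D3:**
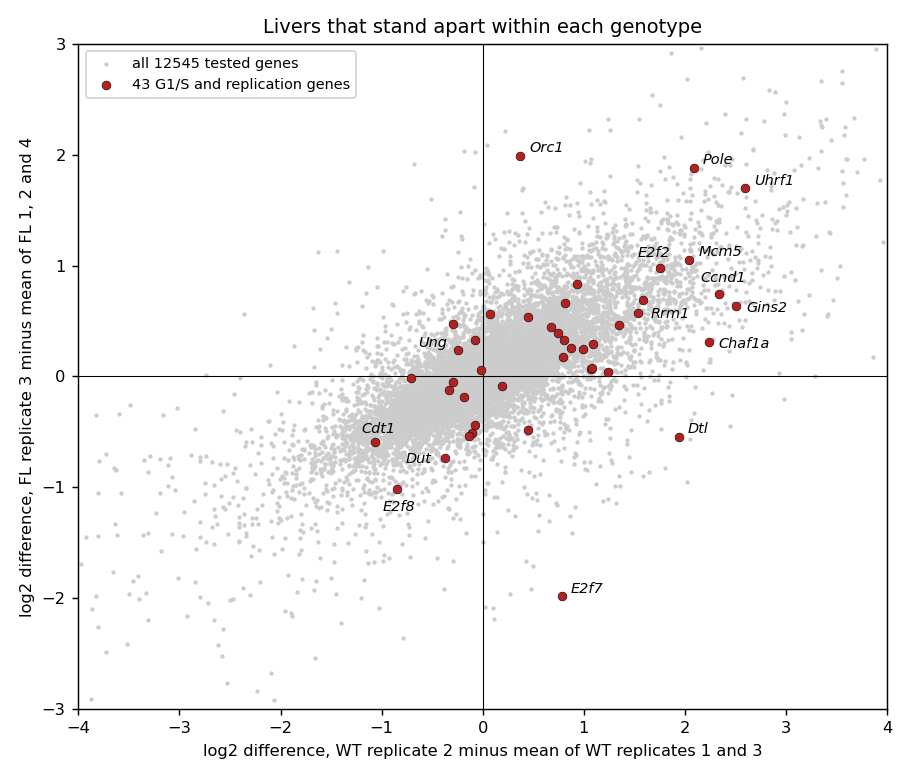
Log2 difference of WT replicate 2 from the mean of WT replicates 1 and 3 (x axis) against that of FL replicate 3 from the mean of FL replicates 1, 2 and 4 (y axis), for all tested genes (grey, with some beyond the axes) and the 43 genes (red). Most red points lie to the right, with Cdt1, E2f8 and Dut at the lower left and E2f7 furthest down at -1.98.

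The cyclin E genes lacked the high value of Ccnd1 in WT replicate 2. Ccne1, which encodes the cyclin E1 partner of CDK2, was at 43, 75, 80 and 48 in FL and 57, 72 and 82 in WT. Ccne2, its close relative, was at 23, 40, 27 and 22 in FL and 36, 18 and 25 in WT. For both, the genotypes overlapped and WT replicate 2 was not the highest WT liver. In FL replicate 3, Ccne1 and Ccnd1 were both at their highest among FL livers. Per kb of exon, Ccnd1 was 20.1 times Ccne1 in WT replicate 2 and 1.61 to 5.82 times Ccne1 in the other livers.

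Among the 4 E2F factors, 3 were highest in WT replicate 2 among WT livers and E2f8 was lowest. E2f1, an activator, was at 51, 64, 54 and 42 in FL and 38, 99 and 57 in WT. E2f2, another activator, was at 19, 15, 33 and 15 in FL and 24, 76 and 20 in WT, 3.45 times the mean of the other WT livers in WT replicate 2. Both had their highest value of all 7 livers there. The activator E2f3, from the list of regulators below, went the other way, at 460, 517, 315 and 451 in FL and 506, 248 and 531 in WT. E2f8, an atypical repressor, was at 189, 194, 92 and 179 in FL and 164, 109 and 236 in WT, so that the same livers, WT replicate 2 and FL replicate 3, were its lowest. E2f7, the other repressor, was at 7, 10, 2 and 18 in FL and 10, 17 and 9 in WT. The FL replicate 3 value stands for 2 estimated reads, with an exact 95% Poisson interval of 0.197 to 5.86 normalised counts that covers counting error only. None of the 4 differed between genotypes by the test, with log2 differences from -0.75 to -0.04.

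Origin licensing was carried by few reads for some genes and many for others. Cdt1, which loads the MCM helicase onto origins, was at 329, 352, 233 and 374 in FL and 405, 179 and 347 in WT. It was lowest in FL replicate 3 and WT replicate 2, at 0.663 and 0.476 times the mean of their mates, and per kb of exon it was the most abundant of the 43 genes at a median of 111 normalised counts. Orc6, a subunit of the origin recognition complex, was at 82, 98, 91 and 121 in FL and 88, 72 and 94 in WT. Its partner Orc1 was at 1, 0, 4 and 0 in FL and 4, 4 and 2 in WT. Cdc6, the other loader of the helicase, was at 2, 6, 4 and 2 in FL and 4, 5 and 7 in WT. Both genes overlapped between genotypes, and a two-sided exact permutation test of the mean log2 value gave p = 0.171 for Orc1 and p = 0.257 for Cdc6, where 4 livers against 3 allow no p below 0.029. Their counts rest on 0 to 8 estimated reads per liver, so only a large difference could have been seen.

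Of the 6 subunits of the MCM2 to MCM7 helicase, 5 were highest in WT replicate 2 among WT livers and 1, Mcm7, was lowest. Mcm2 was at 73, 55, 80 and 48 in FL and 65, 171 and 68 in WT. Mcm3 was at 99, 86, 106 and 82 in FL and 88, 156 and 82 in WT. Mcm5 was at 34, 25, 60 and 27 in FL and 33, 167 and 48 in WT, 4.12 times the mean of its mates in WT replicate 2. In each of the 3, WT replicate 2 was above every other liver and the rest overlapped. Mcm6 was at 196, 220, 145 and 196 in FL and 235, 310 and 219 in WT. Its highest FL liver lay 1 count above its lowest WT liver. The log2 difference of -0.43 had a 95% interval of -0.86 to 0.01 (limma unadjusted p = 0.0529, adjusted p = 0.999). Mcm4 was at 76 in WT replicate 2 and 31 to 51 elsewhere. Mcm7 was at 355, 366, 320 and 371 in FL and 328, 289 and 328 in WT, with the highest liver 1.28 times the lowest.

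The proportions among the RNAs of these subunits differed from liver to liver. Their proteins form a hexamer with 1 copy of each, and protein was not measured here. Per kb of exon, the most abundant subunit was 9.42, 13.2, 6.29 and 12.4 times the least abundant in FL replicates 1 to 4. In WT replicates 1 to 3 the ratio was 8.97, 3.14 and 7.58. WT replicate 2 thus had the most even subunit RNA levels by this measure and FL replicate 3 came next. Mcm7 was the most abundant in 6 livers, at 72.3 to 83.8 normalised counts per kb, and Mcm6 in WT replicate 2 at 66.4 beside 65.3 for Mcm7. Mcm5 went from 8.26 per kb in WT replicate 1 to 41.8 in WT replicate 2. Of the 36-base stretches of Mcm7 exons, 24.1% also occur in another gene, mainly the gene model Gm5487, so part of its level may not be its own.

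Genes that switch on the loaded helicase were divided. Mcm10, which helps to start the helicase, was at 698, 778, 994 and 676 in FL and 978, 719 and 791 in WT. It was the fourth most abundant gene per kb at a median of 101. Cdc45, which joins MCM and GINS in the active helicase, was at 37, 33, 19 and 17 in FL and 35, 31 and 32 in WT. WT replicate 2 was the lowest WT liver for both, and within FL Cdc45 had a higher and a lower pair of values. Gins1, a GINS subunit, was at 26, 32, 35 and 44 in FL and 24, 55 and 27 in WT. Gins2, another subunit, had 6 to 12 normalised counts in 6 livers and 51 in WT replicate 2, but 67.3% of its exon bases overlap Gse1 on the other strand.

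All 4 polymerase genes were highest in WT replicate 2 among WT livers. Pola1, the catalytic subunit of the polymerase that starts each strand, was at 36, 33, 54 and 42 in FL and 69, 74 and 42 in WT (log2 difference -0.55, SE 0.27, limma unadjusted p = 0.0777, adjusted p = 0.999). Pold1, of the lagging strand polymerase, was at 121, 93, 148 and 114 in FL and 121, 155 and 77 in WT. Pole, of the leading strand polymerase, was at 5, 7, 32 and 14 in FL and 7, 54 and 20 in WT. FL replicate 3 was the highest FL liver for these 3, and Pole had the largest standard error of the 39 tested genes, 0.79 on the log2 scale. The primase subunit Prim1 ranged from 20 to 62, with both ends in WT livers.

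Pcna, the sliding clamp, was among the steadiest genes, while its loader was not. It was at 196, 191, 190 and 203 in FL and 209, 162 and 190 in WT (log2 difference 0.07, 95% interval -0.23 to 0.36), and 22.1% of its 36-base stretches occur elsewhere, mainly in a Pcna pseudogene. Rfc3, a clamp loader subunit, was at 42, 47, 70 and 43 in FL and 52, 90 and 50 in WT. Rfc4 and Rfc5 had their highest values in WT replicate 2 as well, 49 beside 20 to 29 and 82 beside 39 to 58 in the other livers. Fen1, the flap nuclease of Okazaki fragments, was at 31, 19, 19 and 37 in FL and 27, 21 and 20 in WT, and 78.8% of its exon bases overlap the antisense gene Gm10143. Lig1, the ligase that seals the fragments, was at 53, 37, 62 and 36 in FL and 45, 125 and 40 in WT, 2.94 times its mates in WT replicate 2. Fen1 and Lig1 act in sequence and did not share that liver's high value.

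Nucleotide supply showed the same division within 1 enzyme. Rrm1, the large subunit of ribonucleotide reductase, was at 104, 82, 170 and 135 in FL and 94, 299 and 104 in WT. Rrm2, the small subunit, was at 207, 233, 189 and 353 in FL and 179, 192 and 230 in WT. Rrm1 was highest in WT replicate 2 and Rrm2 in FL replicate 4, so that the ratio of Rrm2 to Rrm1 per kb was 2.55 in WT replicate 2, 4.42 in FL replicate 3 and 7.57 to 11.3 in the other 5 livers. Tyms, which makes thymidylate, was at 44, 53, 71 and 67 in FL and 61, 103 and 61 in WT. Tk1, the salvage kinase for thymidine, was at 102, 79, 152 and 76 in FL and 83, 171 and 96 in WT. Both genes were highest in their genotype in the livers that stood apart. Dut was the opposite, at 198, 172, 112 and 193 in FL and 200, 147 and 182 in WT.

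Of the 5 chromatin genes, 4 were highest in WT replicate 2 among WT livers, by unequal amounts. Uhrf1, which brings the maintenance methyltransferase to new DNA, was at 4, 0, 7 and 2 in FL and 4, 26 and 3 in WT. The 28 estimated reads in WT replicate 2 have a Poisson interval of 17.1 to 37.1 normalised counts, above the upper limit of 13.9 or less in every other liver, and 21.5% of its 36-base stretches occur in another gene. Dnmt1, that methyltransferase, was at 360, 238, 272 and 280 in FL and 358, 371 and 297 in WT, 1.13 times its mates in WT replicate 2. Chaf1a, the large subunit of the histone chaperone CAF-1, was at 22, 19, 22 and 13 in FL and 13, 76 and 18 in WT. It was 4.90 times its mates in WT replicate 2, and 52.5% of its exon bases overlap Ubxn6 on the other strand. Chaf1b, the middle subunit, was at 32, 53, 54 and 50 in FL and 28, 54 and 22 in WT, with a log2 difference of 0.51 (SE 0.34, limma adjusted p = 0.999) that became 0.80 without WT replicate 2 and FL replicate 3 (adjusted p = 0.410). Slbp, which binds histone mRNA, was at 116, 111, 135 and 168 in FL and 147, 148 and 153 in WT, with the 3 WT livers within 6 counts of each other. Dtl, the substrate receptor that sends Cdt1 for destruction on replicating DNA, was at 2, 3, 2 and 6 in FL and 4, 20 and 5 in WT. Dtl and Cdt1 thus stood on opposite sides in WT replicate 2.

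**Figure D4:**
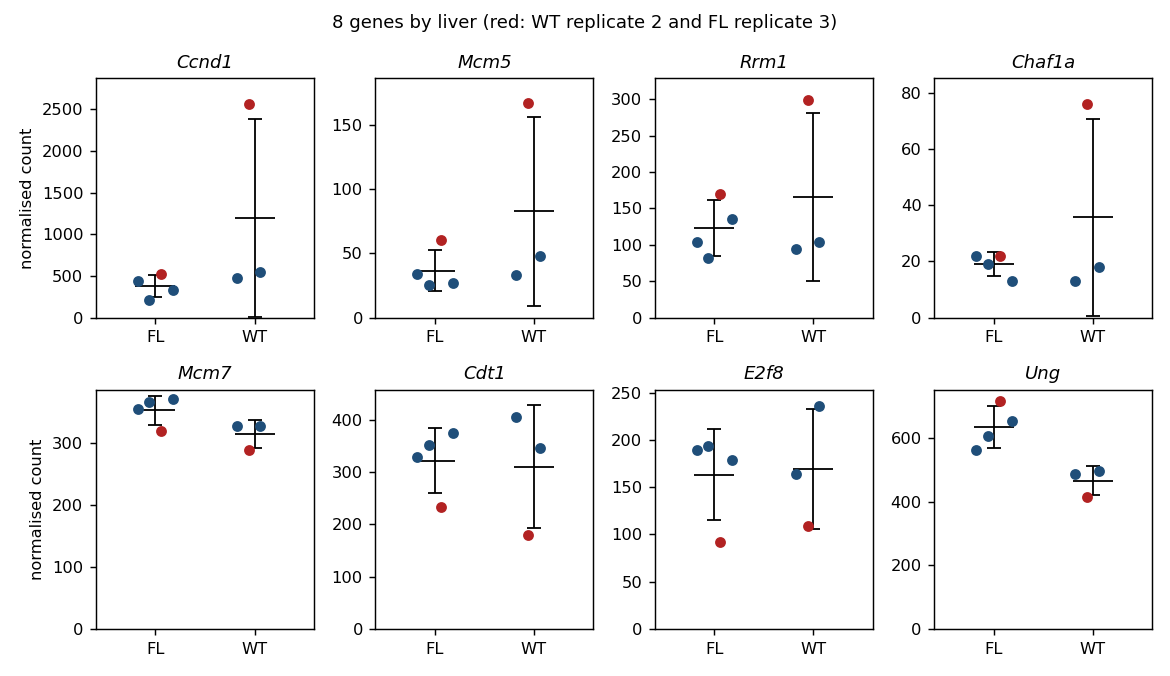
Normalised counts (y axis) of 8 genes in FL (n = 4) and WT (n = 3) livers (x axis), with 1 point per liver in order of replicate, horizontal bars for the mean and error bars for the SD. In Ccnd1, Mcm5, Rrm1 and Chaf1a the WT mean is pulled up by WT replicate 2 (red), in Mcm7, Cdt1 and E2f8 both red points are lowest in their genotype, and in Ung all FL points are above all WT points.

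The genes were also ordered by level per kb of exon and set beside their values in WT replicate 2. Of the 8 genes with the highest median per kb of exon (Cdt1, Ung, Ccnd1, Mcm10, Pcna, Dut, Rrm2 and Mcm7), 6 were lowest there among WT livers and 1, Ccnd1, was highest, with a median log2 difference of -0.27. Of the other 35 genes, 26 were highest and 4 lowest (Orc6, E2f8, Cdc45 and Ccne2), with a median of 0.81. The next genes in the order, Mcm6 and Dnmt1, were highest there. The division at 8 genes was made after the data were seen, and the difference was not tested. Neighbours in the order often did not differ beyond their spread: Ung, Ccnd1 and Mcm10 had medians of 103, 101 and 101 per kb, inside the range of 57.0 to 129 of Cdt1 over the livers.

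**Figure D5:**
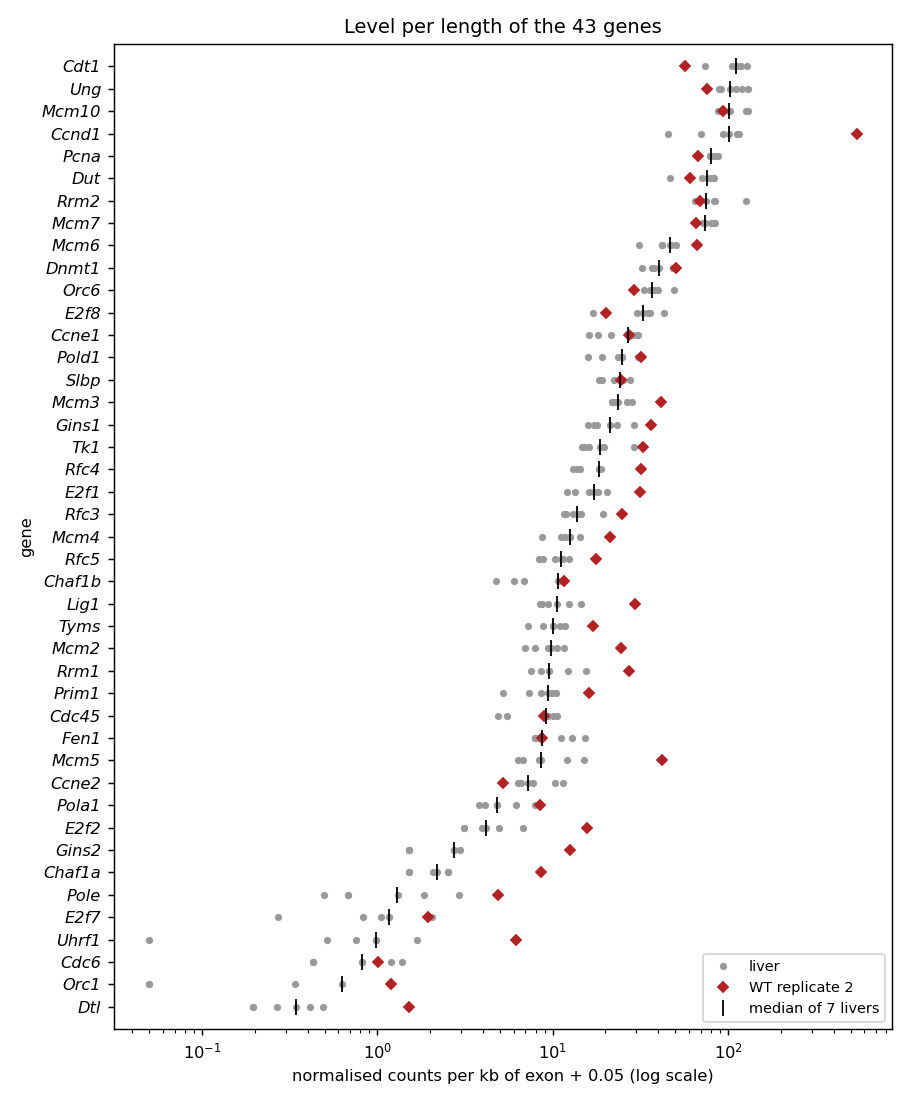
Normalised counts per kb of exon plus 0.05, on a log scale (x axis), for the 43 genes (y axis) in the 7 livers (grey points), with WT replicate 2 in red and the median as a bar. The red point lies left of the median for most genes at the top, apart from Ccnd1 at 544, and right of it for most genes below, down to Dtl.

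Other genes of the pathway gave a similar picture between genotypes and a weaker one within them. Among 39 further replication genes found in the table (of 40 listed), 35 were tested and 0 passed (limma), with a median log2 difference of -0.07. At an unadjusted limma p under 0.05 there was 1, beside 3.2% of all genes. That gene was Dbf4, the activator of the CDC7 kinase that fires origins, at 85, 97, 80 and 117 in FL and 159, 149 and 127 in WT. All FL livers were below all WT livers (log2 difference -0.62, SE 0.18, limma adjusted p = 0.999), as for 1.98% of all genes tested. In WT replicate 2, 22 of the 39 were highest and 11 lowest, with a median of 0.39. The last group held Orc2 and Orc4, further origin recognition subunits, at 138 and 203 beside 245 to 283 and 364 to 385 in the other WT livers.

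Upstream of these genes, 0 of 25 Rb, E2F and CDK regulators passed, with a median log2 difference of -0.03. At an unadjusted limma p under 0.05 there was 1, beside 3.2% of all genes. It was Ccnd2, at 64 to 106 in FL and 105 to 189 in WT. WT replicate 2 was highest for 11 and lowest for 12 of the 25. Cdkn2c, an inhibitor of the cyclin D kinases, was at 179 there and 40 to 69 elsewhere. Cdk6 was at 54 there and 57 in FL replicate 3, beside 99 to 126 in the other livers. Cdkn1a, which encodes p21 and is a p53 target, was at 1810, 1901, 952 and 2946 in FL and 1787, 1355 and 1658 in WT, with overlap and a log2 difference of 0.15 (SE 0.34, limma adjusted p = 0.999).

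Genes of the next phase differed far more between livers. All 20 G2/M and mitosis genes of the list were over 2-fold above both mates in WT replicate 2, with a median log2 difference of 2.92, and 19 were highest in FL replicate 3, with a median of 1.68. Between genotypes 0 of the 18 tested passed (limma, 0 also at an unadjusted p under 0.05), with a median of -1.01. Mki67, a marker of cycling cells, was at 26, 17, 75 and 18 in FL and 26, 380 and 38 in WT. The G1/S and replication genes had lower medians in the same livers, 0.78 and 0.24. They were also less uniform in direction. In WT replicate 2, 25 of the 39 tested were highest and 10 lowest among WT livers, beside 20 and 0 of the 20 G2/M genes. These differences between the lists were not tested.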

How the data were processed

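RNA sequencing of whole liver gave 1 library per mouse, 4 FL and 3 WT. The authors' processing notes name bcl2fastq 2.15.0.4, TopHat2 2.0.13, Bowtie2 2.2.6.0, featureCounts, HTSeq 2.2.4.0, R 3.4.2 and DESeq2. They also name a human genome build, whereas the gene identifiers are of mouse, so the build behind the read counts is not settled here. The deposited values are DESeq2-normalised counts that the authors rounded to whole numbers, entered here as a score because they are no longer raw counts, so no count model was fitted. A size factor for each library was recovered from the step between low values, which gave the estimated depth, and intervals on reads cover counting error only. Of 14988 rows, 120 identifiers that stood on more than 1 row were read once each, which left 14851 genes. Exon lengths and overlaps were taken from the mouse GENCODE annotation on GRCm38, and sequences from RefSeq on GRCm38.p6. An exon length joins all annotated exons of a gene over its transcripts. Levels per kb compared between genes therefore depend on the annotation.

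FL and WT were compared with limma 3.58.1 (trend) in R 4.3.3 on log2(normalised count + 1) over the 12545 genes with a mean of at least 10, adjusted by Benjamini-Hochberg over all of them, with a threshold of 0.05. Fold changes are on that scale, which understates changes of low genes. Genes below the mean were compared by two-sided exact permutation over livers where a p is given. The fit was tested on simulated data. Their spread was taken from the livers other than WT replicate 2 and FL replicate 3, so that test does not cover the spread these livers add. The 43 genes and the lists (other replication genes, regulators, G2/M genes, p53 targets and cell type markers) were chosen with earlier results of these data known. Values per liver are given for a fixed set of 34 genes across the roles, for any gene without overlap between genotypes, for the 3 genes with the smallest p and for the gene with the smallest p in each list, and for others, chosen after their values were seen, where a sentence compares them. Alternatives were other pseudocounts, filters, scalings and limma settings, replicate numbers as a block, and leaving out livers.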

Additional observations from a re-analysis of the deposited data

Results flagged for a closer look

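In the 55 values examined over the 4 FL livers (genes and list genes), 3 had an FL liver separated from the other 3 by more of the group's range than Dixon's 95% critical value, and chance flags about 1 in 20, or 2.75 of 55. E2f8 was at 92 in FL replicate 3, beside 179 to 194 in the other FL livers. Chaf1b was at 32 in FL replicate 1, beside 50 to 54. The T cell marker Cd3e was at 19 in FL replicate 3 and at 3 in each other FL liver. The 3 WT livers are too few for this check.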

How the results depend on the processing

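No G1/S or replication gene passed under any of the 17 alternatives (limma, 0 at adjusted p, 1 to 4 at an unadjusted p under 0.05, smallest adjusted p 0.373). Over all genes the count that passed, 2, was 0 with a pseudocount of 5, a mean of at least 50 or no trend (404, 316 and 465 genes at an unadjusted p under 0.05), 1 with quantile normalisation and 6 without WT replicate 2 and FL replicate 3 together, and 0 to 5 when 1 liver was left out (5 without WT replicate 3, 1 without FL replicate 3 and 0 without any other liver). The median log2 difference of the 39 genes ran from -0.355 (without WT replicate 1) to -0.045 (without WT replicate 2). The median difference of WT replicate 2 from its mates was 0.45 with a mean of at least 50 and 0.413 with quantile normalisation, and the looser motif gave 64.9%. That of FL replicate 3 ran from -0.026 with quantile normalisation to 0.34 with upper-quartile scaling, so its direction depended on the scaling. The sign of the log2 difference turned for E2f8 with quantile normalisation (0.03), for Gins1 (-0.002) and Prim1 (-0.006) with upper-quartile scaling, and without both livers for Ccne2 (-0.133), E2f1 (0.145), E2f7 (0.178), Cdt1 (-0.094), Mcm3 (0.062), Pcna (-0.019), Rrm1 (0.084) and Chaf1a (0.19). When 1 liver was left out it turned for 19 genes, whose values ranged as follows: Ccne2 -0.137 to 0.344, E2f1 -0.518 to 0.161, E2f8 -0.325 to 0.228, Cdt1 -0.241 to 0.345, Mcm3 -0.334 to 0.125, Mcm10 -0.2 to 0.043, Gins1 -0.192 to 0.39, Prim1 -0.355 to 0.438, Pold1 -0.221 to 0.279, Pcna -0.032 to 0.151, Rfc4 -0.601 to 0.025, Rfc5 -0.428 to 0.063, Fen1 -0.005 to 0.304, Lig1 -0.703 to 0.107, Rrm1 -0.573 to 0.257, Tk1 -0.381 to 0.137, Dut -0.211 to 0.098, Chaf1a -0.963 to 0.266 and Csf3r -0.89 to 0.149, the last a neutrophil marker. Leaving out WT replicate 2 alone turned 12. The cause was not tested. Ung stayed between 0.302 and 0.499 throughout.

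Deviations of same-numbered livers correlated at 0.44, -0.48 and -0.66. The livers that stood apart, WT replicate 2 and FL replicate 3, bear different numbers and weigh on these values. The correlations therefore cannot decide whether the numbers mark pairs. With the number as a block, which left out FL replicate 4, 0 genes passed (limma, 110 at an unadjusted p under 0.05), Gins1 was -0.096 and Fen1 was -0.005. With 3 and 4 livers and 1 time point, small differences, and those of genes with few reads such as Orc1 and Cdc6, can be missed.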

Other observations

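Lists that describe the tissue gave the following values between genotypes. Over all tested genes, the shares to set beside them were 0.0159% that passed and 3.2% with an unadjusted p under 0.05 (limma). Without overlap, 1.98% of all tested genes were lower in FL and 2.77% higher. Of 14 p53 targets (Trp53 included), 2 passed the test and 7 had an unadjusted p under 0.05 (limma), with 6 lower in FL without overlap and a median log2 difference of -0.61. Of 8 hepatocyte markers none passed and 2 had an unadjusted p under 0.05, and Apoa1, an apolipoprotein, was at 144629 to 208540 in FL and 114388 to 121251 in WT. Of 6 erythroid markers tested 0 passed and 4 had an unadjusted p under 0.05, with the globin Hbb-bs at 940 to 1370 in FL and 673 to 817 in WT. Of 5 bile duct markers tested 0 passed and 3 had an unadjusted p under 0.05, with Krt19, a bile duct keratin, at 6 to 21 in FL and 26 to 128 in WT (limma adjusted p = 0.999). The list had no common direction: Krt7, another keratin, was at 2 to 18 in FL and 28 to 33 in WT, while Sox9, a transcription factor of bile duct cells, was at 297 to 763 in FL and 204 to 261 in WT. All 3 were without overlap between genotypes. None of the tested markers of Kupffer cells and macrophages (12), neutrophils and monocytes (5), lymphocytes (6), endothelial cells (8) or stellate cells (8) had an unadjusted limma p under 0.05. The gene with the smallest p in each was Timd4 (126 to 159 in FL, 88 to 154 in WT), Csf3r (25 to 62 and 26 to 113), Cd3e (3 to 19 and 7 to 24), Lyve1 (221 to 524 and 158 to 391) and Lrat (60 to 206 and 115 to 444). Among G2/M genes it was Cenpe (2 to 11 and 7 to 69).

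In WT replicate 2, 7 of the 9 neutrophil and monocyte markers and all 11 lymphocyte markers found in the table were the highest of the WT livers, with sums of 382 beside 85 to 129 and 284 beside 55 to 79. Endothelial markers were highest there for 7 of 8, with a sum of 4143 beside 2927 to 3177. All 8 stellate markers were highest there. Of these lists, Mmp8, Cxcr2, Cd8a, Ms4a1, Cftr and Slc4a1 were at 0 in at least 1 liver. The bile duct list was highest there for 0 of 6.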
